A study of Mus musculus with 35 samples.

Results

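The genes described here encode the eukaryotic initiation and elongation factors, the proteins that place ribosomes on mRNA and drive them along it. They were taken as every protein-coding gene of the mm9 annotation whose symbol begins with Eif or Eef and a digit, leaving out Eif4a3, which belongs to the exon junction complex. The rule gave 66 gene models of 22380 protein-coding models, with 65 symbols because Eef2k has a second model, and 65 models had tags. The mRNAs were followed by iCLIP, in which UV light crosslinks a protein to RNA, the complex is immunoprecipitated, and the end of each cDNA marks a single nucleotide (a tag) next to the crosslink. All samples were mouse P19 embryonal carcinoma cells, a pluripotent line, and the proteins were immunoprecipitated through GFP. NXF1-GFP (n = 3), SRSF1-GFP (n = 4), SRSF2-GFP (n = 5), SRSF3-GFP (n = 3), SRSF4-GFP (n = 3), SRSF5-GFP (n = 4), SRSF6-GFP (n = 3) and SRSF7-GFP (n = 6) were compared, and GFP with a nuclear localization signal (GFP-NLS) was the control, present as 1 file summed over 4 libraries. Each protein was expressed from a bacterial artificial chromosome in a stable clonal line beside the endogenous gene, so the protein and the clone cannot be told apart. The series calls the libraries biological replicates and names no separate cultures, so p-values measure the spread between these libraries.

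Initiation begins when eIF4F (the cap-binding eIF4E, the scaffold eIF4G and the helicase eIF4A) binds the mRNA cap. The small ribosomal subunit, carrying eIF3 and the initiator tRNA held by eIF2, then scans to the start codon, and eEF1 and eEF2 afterwards bring in aminoacyl-tRNAs and move the ribosome along. SR proteins bind exons, and NXF1 carries mature mRNA through the nuclear pore with SR proteins among its adaptors, so the study set the binding of NXF1 beside that of each SR protein.

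The libraries held between 13038 and 4459523 listed tags (median 237488), and levels are given as CPM, tags scaled to 1000000 listed tags in the library. Only positions that passed the authors' false discovery threshold are listed, so a gene at 0 is one listed at 0. All 8 pluripotency markers had tags (463 CPM summed, mean of the libraries), against 8 of 13 markers of other cell types (13.6 CPM summed). The headers of SRSF2 replicates 2 and 5 name SRSF1, against their labels, and counts of calls that moved without them are given beside the results. The headers also name an earlier run (15 libraries, of SRSF2, SRSF5, SRSF6 and SRSF7) and a later run (16 libraries, of NXF1, SRSF1, SRSF3, SRSF4 and SRSF7), so comparisons are also given within a run.

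A 30-nucleotide stretch is shown first for 11 of the 12 most tagged factor genes. It surrounds the nucleotide with the highest CPM averaged over libraries and then proteins, and is called the strongest stretch below. Whole stretches were not ranked, and thin libraries weigh as much as deep ones. The letters are from the NCBIM37 (mm9) assembly, 5′ to 3′ on the transcript strand, and the capital marks that nucleotide. In Eef2 the stretch lay in coding exon 4 of 14, in Eef1a1 in the 5′ UTR part of exon 2, in Eif4g2 and Eif5a in the 5′ UTR of exon 1, and in Eif4b, Eif2s2 and Eef1b2 in coding exons 3, 6 and 2. It lay in coding exon 12 of 22 of Eif3a, 14 of 21 of Eif3c and 5 of 12 of Eif5. In Eif4a2 it lay in an exon outside the representative transcript.
Eef2, chr10:80641563-80641592, plus strand: cgcatcgtggagaacGtcaacgtcatcatc
Eef1a1, chr9:78328459-78328488, minus strand: gaaaaccaccgctaaTtcaaagcaaaaatg
Eif3a, chr19:60848712-60848741, minus strand: aggctgcgccaagagGcaaaggagcgagag
Eif4a2, chr16:23112648-23112677, plus strand: tctggtactttgtagGaaggtagagagctg
Eif4g2, chr7:118226382-118226411, minus strand: cccttccctccccctTttttgttttccgtt
Eif5a, chr11:69734712-69734741, minus strand: cagcacagtagcgggTtcggaggcagcagt
Eif4b, chr15:101914695-101914724, plus strand: tgaccggagccgtctTcccaagtcgccacc
Eif2s2, chr2:154703468-154703497, minus strand: agaagaggaaatttgTtatgaaacctccac
Eef1b2, chr1:63224355-63224384, plus strand: agtatttgaagcagtTtctggtccaccacc
Eif3c, chr7:133700269-133700298, minus strand: atcctgcacacgtacTacaagtttgactac
Eif5, chr12:112778459-112778488, plus strand: attcattaaaaaattTgttctctgtcctga

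These stretches were tagged in 9 to 25 of the 31 libraries, but not equally by every protein. The Eef2 stretch, which holds CATC 3 times and CAAC once, averaged 33.0 CPM in NXF1, 126 CPM in SRSF3, 118 CPM in SRSF7 and 35.1 to 42.6 CPM in SRSF1, SRSF2, SRSF4 and SRSF6. The Eef1a1 stretch averaged 77.1 CPM in NXF1, against 222 CPM in SRSF3 and 147 CPM in SRSF7. The Eif4a2 stretch had no tag in NXF1 and was highest in SRSF2 at 65.2 CPM (70.4 CPM without SRSF2 replicates 2 and 5), and the Eif2s2 stretch was highest in SRSF4 at 69.6 CPM and SRSF6 at 55.3 CPM. The Eif3a stretch averaged 2.81 CPM in NXF1, 129 CPM in SRSF1 and 85.3 CPM in SRSF7. The Eif3c and Eif5 stretches had no tag in NXF1, and were highest in SRSF7 at 33.8 CPM and in SRSF2 at 28.8 CPM. These means rest on few tags: the Eif3c stretch held 118 in 11 libraries, Eif5 68 in 9 and Eif3a 285 in 17. In a mean a thin library weighs as much as a deep one. SRSF7 replicate 5 had 3 tags in all of Eif3c among 16556 listed, and SRSF2 replicate 1 had 4 in Eif5 among 32164. The marked nucleotide was T in 8 of the 11.

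Over the 31 libraries the tags were concentrated in a few factors. By mean CPM the 12 highest genes were Eef2, Eef1a1, Eif3a, Eif4a2, Eif4g2, Eif4g1, Eif5a, Eif4b, Eif2s2, Eef1b2, Eif3c and Eif5, between 1137 CPM for Eef2 and 165 CPM for Eif5. Per kilobase of the representative transcript, counting exonic tags, the order was led by Eef1a1 (474 CPM per kb) and Eef2 (335 CPM per kb), then Eif5a (175 CPM per kb), Eif3a (156 CPM per kb), Eif4a2 (147 CPM per kb) and Eef1b2 (111 CPM per kb). The factor genes summed to 3332 ± 1168 CPM in NXF1 (SD, n = 3), and the 28 SR libraries had a lowest, median and highest sum of 1411, 9025 and 17132 CPM. SRSF6 had the highest mean (15269 ± 2248 CPM, n = 3) and SRSF5 the lowest SR mean (3927 ± 2909 CPM, n = 4). In the GFP-NLS control, 21 of 21880 listed tags fell in 8 of the genes (960 CPM), among them 6 in Eif5, 3 in Eif3a and 3 in Eif4g2.

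**Figure D1:**
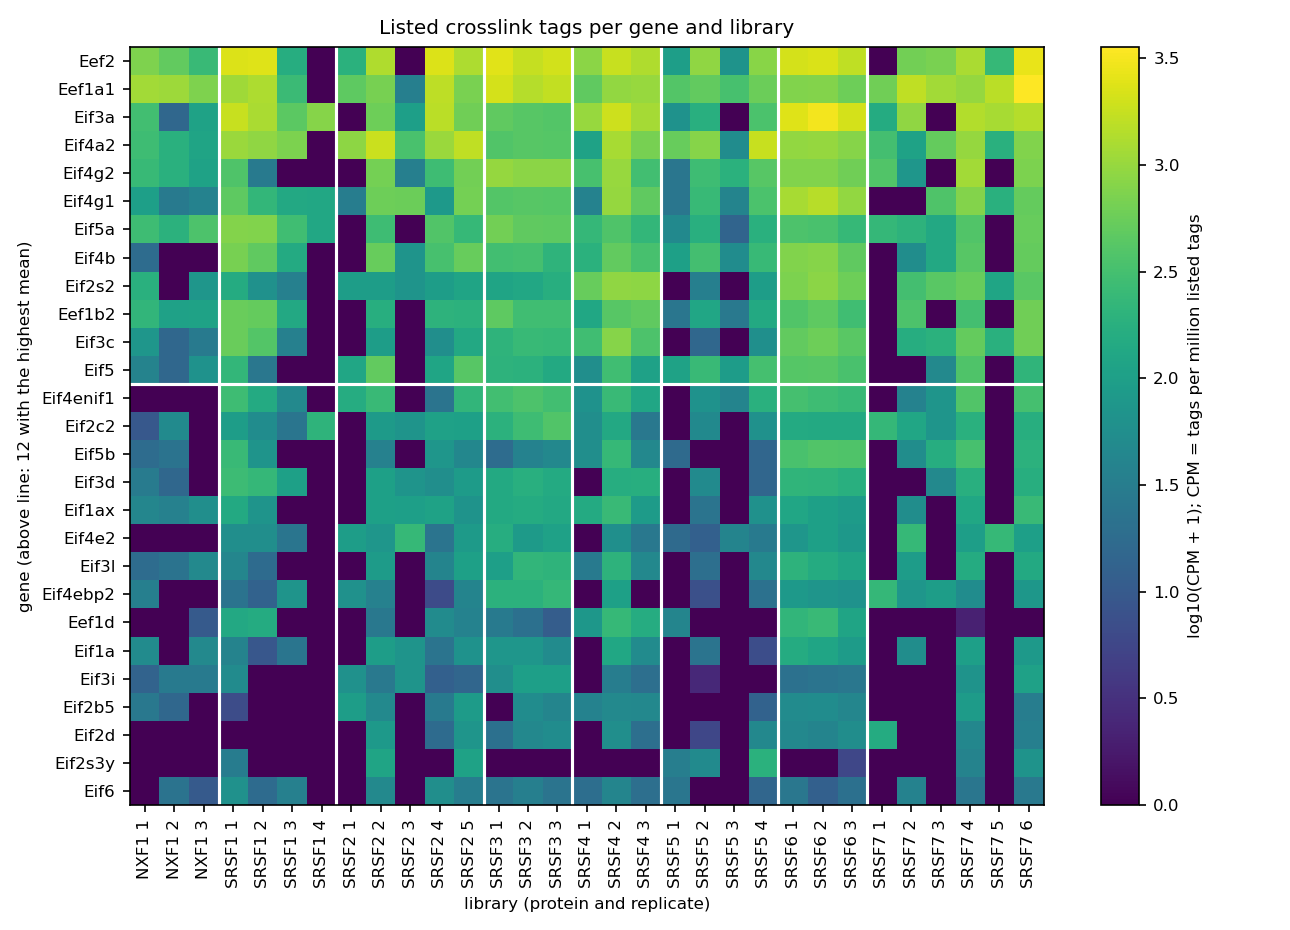
Tags of the 12 most tagged factor genes and of the other genes called in a comparison, as log10(CPM + 1) by colour, with a column for each of the 31 libraries grouped by protein. Eef2 and Eef1a1 are high in nearly every column, Eif3a is highest in SRSF6, and Eif4b, Eif4enif1 and Eif4e2 are at or near 0 in NXF1.

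Of the 66 gene models, 51 passed the filter on low counts and entered a limma voom fit over 6125 genes with p-values adjusted over all of them (Benjamini-Hochberg). The other 15 models were too sparse to test. The filter counted all libraries together, so a gene at or near 0 in a protein entered only through libraries where it was higher. NXF1 was set against the mean of the 7 SR proteins, every SR protein against the 6 others averaged, and SRSF3 against SRSF7. Calls of one comparison share libraries with those of the others. On this scale the NXF1 and SRSF5 libraries had lower tags in most genes: the median log2 change over all genes was -1.86 for NXF1 and -1.27 for SRSF5, while trimmed-mean scaling gave -0.69 and -0.10 and coding-gene totals -0.60 and -0.25. It was 1.04 for SRSF6 and 0.78 for SRSF3, where trimmed-mean scaling gave 0.69 and 0.52 and coding-gene totals 0.29 and 0.17. The changes and p-values of single genes below are against 0 and do not allow for these medians. A call in the direction of a median should be read with that in mind.

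**Figure D2:**
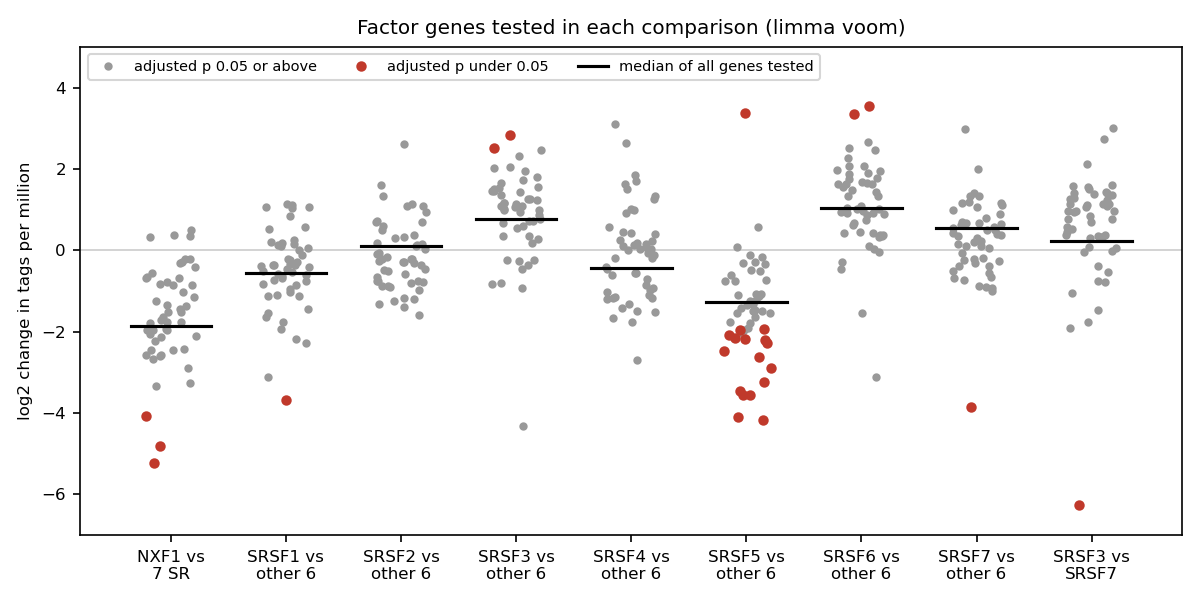
Log2 changes of the 51 factor genes tested, with a column for each comparison, filled red where limma's adjusted p was under 0.05, and a black line at the median of all 6125 genes. The red points lie below the line for NXF1, SRSF1, SRSF5 and SRSF7, apart from 1 gene above it in SRSF5, and above the line for SRSF3 and SRSF6. In SRSF3 against SRSF7 the 1 red point lies below the line.

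Set against the SR proteins, NXF1 had fewer tags in 3 of the 51 factors and more in 0. Of all 6125 genes, 2.89% were lower and 3.58% higher, beside 5.88% of the factors called lower. At an unadjusted p under 0.05 there were 14 factors. The share of all genes or parts at that threshold was not tallied, here or in the comparisons below. These unadjusted counts therefore show nothing particular to the factors. Limma-trend called 0 factors, where it called 0.376% of all genes higher and 0.212% lower. The 3 factors called by limma voom were 2 of 10 tested genes of eIF4F and 1 of 3 tested eIF4E regulators. Eif4b, the RNA-binding helper of the eIF4A helicase, had 16.8, 0 and 0 CPM in NXF1, 4 tags in all, and a lowest, median and highest of 0, 306 and 798 CPM in the 28 SR libraries. Of those, 24 were above every NXF1 library and 4 were also at 0, and the log2 change was -4.81 ± 1.30 (SE), adjusted p = 0.0229 by limma. Eif4enif1 encodes 4E-T, the eIF4E transporter, and was listed at 0 in the 3 NXF1 libraries. The SR libraries gave a lowest, median and highest of 0, 151 and 389 CPM for Eif4enif1, with 23 of 28 above 0 (adjusted p = 0.0298, limma). Eif4e2, a cap-binding relative of eIF4E, was listed at 0 in NXF1 as well, against 0, 64.6 and 242 CPM in the SR libraries, with 24 of 28 above 0 (adjusted p = 0.0449, limma). The call of Eif4e2 was lost in 16 of the 40 alternatives run on it, against 5 of 41 for Eif4b and for Eif4enif1. Eif4b, Eif4enif1 and Eif4e2 passed the filter only through SR libraries, so these lower calls are not independent of the filter.

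The calls of these genes depended on the setting. Within the later run Eif4b gave -5.12 with adjusted p = 0.0086 by limma, and 12 of 47 factors were lower there (25.5%), where 34.01% of all genes were. Trimmed-mean scaling left the direction of Eif4b, at -3.32, but not the call (adjusted p = 0.24), and 0 factors were called when any 1 of the NXF1 replicates was left out.

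Within eIF4F, the NXF1 values of the remaining genes overlapped those of the SR libraries. In Eif4g2 and Eif4g1 some SR libraries were at 0, so no NXF1 value could lie below all of them. Eif4g2, a scaffold related to eIF4G that does not bind eIF4E, had 244, 178 and 110.4 CPM in NXF1 and 0, 356 and 1143 CPM (lowest, median, highest) in SR libraries. Its highest mean was in SRSF3, at 989.5, 865 and 859.8 CPM. Eif4g1, the main eIF4G scaffold, had 101, 28.5 and 36.8 CPM in NXF1, and in SRSF6 it had 1242, 1482 and 947 CPM, where the 28 SR libraries had a median of 385 CPM. The log2 changes of NXF1 against SR were -0.41 ± 1.09 for Eif4g2 and -2.46 ± 0.91 for Eif4g1, with limma adjusted p of 0.762 and 0.0765, so neither passed the adjusted threshold.

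Eif4a2, a helicase subunit of eIF4F, had many tags outside its representative transcript. Exons of its other transcripts held 49.95% of 23623 tags, and this share was between 44.3% in SRSF7 and 61.5% in SRSF4 among the SR proteins. Of those exonic tags in SR libraries, 64.7% lay in exons of other protein-coding transcripts and 37.6% in retained introns (the classes overlap), and 10.5% were within 50 nt of a small RNA gene. In NXF1 the same exons held 83 of 104 Eif4a2 tags, of which 53.0% were within 50 nt of a small RNA gene. Eif4a2 had 278, 178 and 119.6 CPM in NXF1, against 0, 733 and 1857 CPM (lowest, median, highest) in the 28 SR libraries. The highest library was SRSF2 replicate 2, whose header names SRSF1, and the libraries overlapped. Eif4a1, its close paralog, had 44.0% of 7448 tags in such exons.

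Among the eIF4E regulators, Eif4ebp2, a repressor that sequesters eIF4E, had 193, 194 and 234 CPM in SRSF3 and 0, 35.01 and 230.1 CPM (lowest, median, highest) in the 25 libraries of the other SR proteins. Of those 25 libraries 24 lay below every SRSF3 library, and the exception was SRSF7 replicate 1, the library with the fewest tags. The log2 change was 2.83 ± 0.74, adjusted p = 0.0122 by limma. The tags of Eif4ebp2 lay mostly in its 3′ UTR, which held 830 of its tags in SRSF3 (87.1%) and 78.1% over all libraries. Eif3i, a WD-repeat subunit of eIF3, was the other factor higher in SRSF3, at 56.2, 100.3 and 99.5 CPM, against 0, 11.1 and 108 CPM in the other SR libraries. Eif3i overlapped the others in 4 of 25 libraries (2.52 ± 0.76, adjusted p = 0.0268, limma).

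SRSF3 was thus higher in 2 and lower in 0 of 51 factors, where 8.73% and 2.58% of all genes were called. At an unadjusted p under 0.05 there were 10 factors. Limma-trend called 0 factors, where it called 0.702% of all genes higher and 0.0327% lower. Within the later run Eif4ebp2 kept its call (2.75, adjusted p = 0.029, limma), while Eif3i did not (1.70, adjusted p = 0.15, limma). With any 1 of the SRSF3 replicates left out 0 factors were called, and without SRSF2 replicates 2 and 5 there were 4, of which 3 were higher. Without those SRSF2 libraries 11.1% of all genes were higher and 2.93% lower. Trimmed-mean scaling gave 1 higher and 1 lower, where 3.59% and 3.77% of all genes were. Coding-gene totals gave 3 higher and 1 lower, where 7.33% and 7.35% of all genes were.

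The eIF3 subunits, which scaffold the small ribosomal subunit, carried 381 CPM summed over 13 genes in NXF1, against 4046 CPM in SRSF6 and 2401 CPM in SRSF4. SRSF1, SRSF2, SRSF3 and SRSF7 had 1028 to 1817 CPM, and SRSF5 had 390.3 CPM. Eif3a, the largest subunit, had 299, 14.2 and 110.4 CPM in NXF1. It had 2375, 3098 and 2089.9 CPM in SRSF6 and 1007, 1894 and 1192 CPM in SRSF4, against 479, 421 and 404 CPM in SRSF3. All 3 SRSF6 values were above every other library, the next being SRSF4 replicate 2. Eif3c, another core subunit, had 71.6, 14.2 and 27.6 CPM in NXF1, against 507, 593 and 445 CPM in SRSF6 and 286, 808 and 358 CPM in SRSF4. The NXF1 values of Eif3c were below all 6 of these.

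SRSF6 was higher in 2 factors and lower in 0, where 4.23% and 0.767% of all genes were called. Eif5b, the GTPase that joins the ribosomal subunits, had 339, 382 and 373 CPM in SRSF6 and 0, 36.2 and 325 CPM (lowest, median, highest) in the other 25 SR libraries. The groups did not overlap for Eif5b, and the log2 change was 3.34 ± 0.81, adjusted p = 0.0154 by limma. Eef1d, the guanine exchange subunit delta of eEF1, had 220.4, 257 and 118 CPM in SRSF6, against 0, 1.12 and 241 CPM in the others (3.55 ± 0.86, adjusted p = 0.0156, limma). For Eef1d 21 of 25 libraries lay below every SRSF6 library. Within the earlier run both held, with Eif5b at 3.87 (adjusted p = 0.0019, limma) and Eef1d at 4.15 (adjusted p = 0.0023, limma), and 13 of 44 factors were higher there (29.5%) and 1 lower, where 17.7% and 2.1% of all genes were. Without SRSF2 replicates 2 and 5 there were 5 of 50 factors higher (10%), where 8.42% of all genes were. Trimmed-mean scaling, limma-trend and leaving out any 1 of the SRSF6 replicates each gave 0 calls, and 13 factors had an unadjusted p under 0.05. Of all genes, trimmed-mean scaling called 0.473% higher and 0.98% lower, and limma-trend called 0.114% higher.

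Eef1d stood out at the other end in SRSF7. It had 1.12 CPM in SRSF7 replicate 4, 5 tags of 4459523, and was listed at 0 in the other 5 SRSF7 libraries. The other 22 SR libraries had 0, 31.6 and 257 CPM (lowest, median, highest), with 15 above every SRSF7 library. The log2 change was -3.86 ± 0.84, adjusted p = 0.00733 by limma, and no other factor was called in SRSF7, where 0.555% of all genes were lower and 2.5% higher. The call held within the later run (-5.11, adjusted p = 0.02, limma), and not within the earlier run, whose SRSF7 libraries held 13038 to 54936 listed tags (-0.58, adjusted p = 0.95, limma). Without SRSF7 replicate 4, and without replicate 6, 0 factors were called.

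SRSF5 had fewer tags in 16 of the 51 factors (31.4%) and more in 1, where 20% of all genes were lower and 1.6% higher. The median factor stood at -1.49 and the median of all genes at -1.27, and 28 factors had an unadjusted p under 0.05. Limma-trend called 0 factors, where it called 0.0653% of all genes higher and 0.0327% lower. The 16 were 5 eIF3 subunits (Eif3a, Eif3c, Eif3d, Eif3i and Eif3l), 4 start-site factors (Eif1a, Eif1ax, Eif5b and Eif6), both Eif2s2 and Eif2b5 of eIF2 and its exchange factor, Eif4ebp2 and Eif4enif1, the elongation factors Eef1d and Eif5a, and the Argonaute Eif2c2. Eif5b had 16.03, 0, 0 and 13.96 CPM in SRSF5, and 0, 49.9 and 382 CPM (lowest, median, highest) in the other 24 SR libraries, of which 18 were above every SRSF5 library (-4.17 ± 0.85, adjusted p = 0.00347, limma).

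Eif3c had 0, 14.3, 0 and 57.8 CPM in SRSF5, against 0, 220 and 808 CPM in the others (-3.57 ± 0.77, adjusted p = 0.0045, limma). Eif2s2, the beta subunit of eIF2, had 0, 33.4, 0 and 93.7 CPM, against 0, 145 and 929 CPM (-3.25 ± 0.80, adjusted p = 0.00846, limma). Eif3a had 64.1, 174, 0 and 347 CPM, against 0, 968 and 3098 CPM (-3.57 ± 0.95, adjusted p = 0.0117, limma), and Eef1d had 40.1, 0, 0 and 0 CPM, against 0, 22.4 and 257 CPM (-4.10 ± 1.01, adjusted p = 0.00844, limma). In Eif3c, Eif2s2 and Eif3a all SRSF5 values were below the median of the others, while for Eef1d SRSF5 replicate 1 was above it, and in all 4 genes the libraries overlapped. Trimmed-mean scaling left 3 lower and 1 higher, where 2.38% and 3.56% of all genes were. The earlier run alone left 7 of 44 lower (15.9%, beside 17.4% of all genes). Leaving out SRSF5 replicate 2 left 1 call in all, and leaving out replicate 1 or 3 left 8.

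SRSF1 was lower in 1 factor and higher in 0, where 1.4% and 1.16% of all genes were called. The factor was Eif2d, an initiator tRNA-binding protein, listed at 0 in the 4 SRSF1 libraries, against 0, 26.1 and 153 CPM (lowest, median, highest) in the other 24 SR libraries, of which 16 were above 0 (adjusted p = 0.0181, limma). Eif2d, too, passed the filter only through libraries of other proteins, and its call was lost without SRSF1 replicate 1, 3 or 4. Limma-trend called 0 factors, beside 0.131% of all genes higher and 0.0327% lower, and 7 factors had an unadjusted p under 0.05. In SRSF2, where 0.163% of all genes were higher and 0.294% lower, 0 factors were called. In SRSF4, where 0.424% were higher and 0.0327% lower, 0 were called as well. At an unadjusted p under 0.05 there were 4 in each, and limma-trend called 0 in both. Of all genes limma-trend called 0.049% higher and 0.0163% lower in SRSF2, and 0.0163% higher in SRSF4. SRSF4 nevertheless held the highest Eif2s2 values, 536, 929 and 885 CPM, with SRSF6 at 720.2, 859 and 589 CPM, while the other 5 SR proteins ranged up to 529 CPM.

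Of the remaining start-site factors, Eif5, the GTPase-activating protein of eIF2, had 37.9, 14.2 and 64.4 CPM in NXF1, against 0, 134 and 499.8 CPM (lowest, median, highest) in SR libraries. Eif1, which keeps the scanning subunit open, had 75.8, 42.7 and 0 CPM in NXF1, against 0, 77.2 and 952 CPM. The highest Eif1 value, 952 CPM in SRSF4 replicate 1, stood beside 111 and 75.3 CPM in the other SRSF4 libraries. The 5′ UTR of Eif1 held 49.4% of its 2771 tags and 76.4% of those in SRSF3. Eif2s1, the alpha subunit of eIF2 that the stress kinases phosphorylate, had 50.5, 21.4 and 0 CPM in NXF1, against 0, 58.6 and 153 CPM in SR libraries. Of these kinases, Eif2ak1 (HRI) had 46.3, 42.7 and 36.8 CPM in NXF1, against 0, 30.1 and 153 CPM, and Eif2ak4 (GCN2) had 12.6, 0 and 0 CPM in NXF1, against 0, 28.9 and 125 CPM. NXF1 lay inside the range of the SR libraries for all 5 genes, a range that starts at 0, so no NXF1 value could lie below it.

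The symbols Eif2c1 to Eif2c4 are older names of the Argonaute proteins, which carry miRNAs and are not initiation factors. Eif2c2 (Argonaute 2) had 8.42, 49.9 and 0 CPM in NXF1, against 0, 97.9 and 382 CPM (lowest, median, highest) in SR libraries. Its highest mean was in SRSF3, at 193, 282 and 382 CPM. Eif2c1 had 12.6, 14.2 and 18.4 CPM in NXF1, against 0, 32.2 and 213 CPM, with the highest values, 213 and 190 CPM, in SRSF2 replicates 2 and 5, whose headers name SRSF1. The other SRSF2 libraries had 0, 67.4 and 0 CPM, and SRSF6 had 176, 119 and 134 CPM.

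The elongation factors gave NXF1 its strongest signal. Eef1a1, which delivers aminoacyl-tRNA to the ribosome, was the most tagged factor in each NXF1 library, at 1166, 1076 and 727 CPM, against 0, 771 and 3574 CPM (lowest, median, highest) in the SR libraries. The log2 change was 0.49 ± 0.80 (adjusted p = 0.607, limma). Eef2, the translocase, had 741, 506 and 258 CPM in NXF1, against 0, 1281 and 2701 CPM, a change of -0.66 ± 1.13 (adjusted p = 0.633, limma). Eif5a, which relieves stalled ribosomes and is counted here with elongation, had 278, 192 and 359 CPM in NXF1, against 0, 241 and 788 CPM, and Eef1b2, an exchange subunit of eEF1, had 215, 107 and 110.4 CPM, against 0, 193 and 598 CPM. All 4 overlapped the SR libraries, whose lowest value was 0 in each gene, so no NXF1 value could lie below them. Eef1a1 has many processed pseudogenes, and the sources used here do not say how reads were shared among such copies.

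By transcript part, the coding sequence (CDS) held the most tags in NXF1 and in all 7 SR proteins by mean, and the 3′ UTR held a larger share in NXF1. In NXF1, 27.97%, 26.1% and 25.9% of the factors' tags lay in 3′ UTRs (26.6 ± 1.16%, SD, n = 3), against 0, 8.57 and 16.9% (lowest, median, highest) in the 28 SR libraries. No SR library reached the NXF1 values. The mean of the 7 SR proteins was 9.74%, a difference of 16.9 percentage points, and within the later run it was 14.05. Other protein-coding genes gave 27.0% in NXF1 and 11.9% in the SR mean, and these differences between factors and other genes were not tested. In other parts the values lay further apart: 49.9 ± 3.58% of NXF1 tags in factors lay in the CDS, against 24.8 ± 4.52% in other genes, and 3.37 ± 0.588% lay in introns, against 36.1 ± 5.39% in other genes.

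The other shares of NXF1 overlapped the SR libraries. The CDS share of 49.9% stood beside a mean of 58.3% over the 7 SR proteins, the 5′ UTR share of 13.9 ± 5.15% beside 9.89%, and the intron share of 3.37% beside 12.1%. No test was run on these shares. The 3′ UTR difference depended on setting small RNA tags apart: with them counted in their host genes it was -1.10 points. Eef1a1, with 79.9% of its 507 NXF1 tags in the CDS, weighed on them: without it the 3′ UTR difference was 23.9 points and the CDS difference -20.8 points, against 16.9 and -8.41 with it. Eef2 shows the 3′ UTR pattern in a single gene. In NXF1 118 of its 275 tags (42.9%) were in the 3′ UTR, where the SR proteins had 8.76% to 17.3%. The level there was 221 CPM in NXF1 and 187 CPM in the SR mean, while in the CDS of Eef2 it was 259 CPM in NXF1 and 924 CPM in the SR mean.

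**Figure D3:**
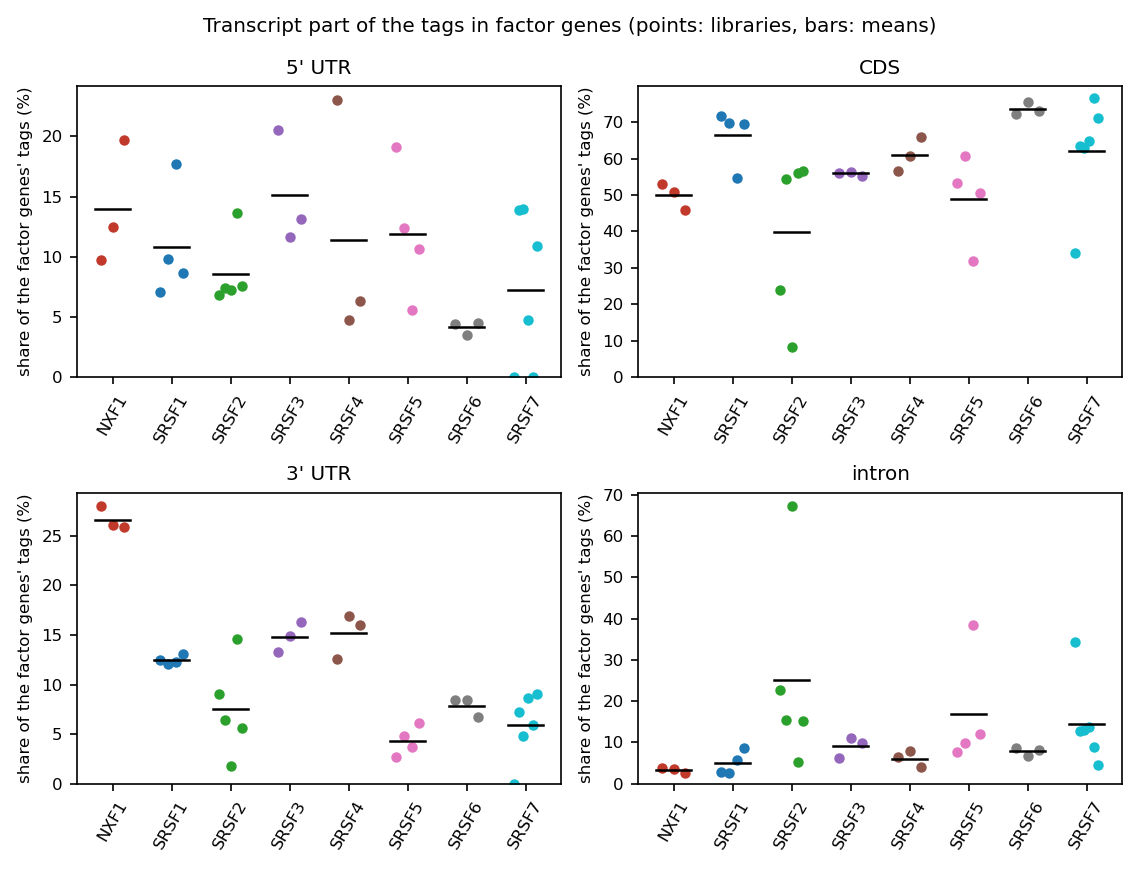
Share of the factor genes' tags in 5′ UTR, CDS, 3′ UTR and intron, in percent, with a point for each library and a bar at each protein's mean. In the 3′ UTR panel the 3 NXF1 points, at 25.9 to 27.97%, stand above all SR points, of which the highest is 16.9%, and in the other panels NXF1 lies among them.

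Tested part by part over 7344 gene parts, of which 93 were parts of factors, NXF1 was lower in 2 and higher in 0, where 0.477% and 2.86% of all parts were called. At an unadjusted p under 0.05 there were 25. Limma-trend called 0 of them, where it called 0.272% of all parts higher and 0.0272% lower. The CDS of Eif3c had 33.7, 0 and 27.6 CPM in NXF1, against 0, 124 and 682 CPM (lowest, median, highest) in SR libraries (-2.92 ± 0.85, adjusted p = 0.0457, limma). The CDS of Eif2c2 had 0, 21.4 and 0 CPM in NXF1, against 0, 62.8 and 162 CPM (-3.49 ± 1.02, adjusted p = 0.0483, limma). Both overlapped the SR libraries, and both were called within the later run too, with 12 of 79 parts lower there (15.2%), where 10.5% of all parts were. Coding-gene totals gave 6 parts higher and 2 lower, where 9.78% and 0.354% of all parts were. Over the alternatives run, the call of the Eif3c CDS was lost in 20 of 40 and that of the Eif2c2 CDS in 26 of 40. With any 1 of the NXF1 replicates left out, or with small RNA tags kept with the host, 0 parts were called. Without SRSF2 replicates 2 and 5 there were 4 of 88 lower (4.55%), where 0.734% of all parts were. The strongest stretch of the Eif3c coding sequence, printed above in exon 14, had no NXF1 tag, nor had that of Eif2c2, in exon 8 of 19. The Eif3c stretch held 118 tags in 11 libraries and the Eif2c2 stretch, shown here, 37 in 10. With so few tags and thin NXF1 libraries, the absence of NXF1 tags there says little.
Eif2c2, chr15:72955623-72955652, minus strand: cccacctcccgtgttTacaagtcggacagg

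SRSF3 and SRSF7 were also set against each other, as the SR proteins on which the study concentrates. At the gene level SRSF3 was lower in 1 factor and higher in 0, where 1.29% and 0.588% of all genes were called. By part it was lower in 2 and higher in 0, where 2.41% and 1.39% were called. By limma-trend there were 0 at either level, with 3 genes and 13 parts at an unadjusted p under 0.05. Limma-trend called 0.31% of all genes higher and 0.0327% lower, and 1.02% and 0.0408% of all parts. The gene was Eif2s3y, described next, whose CDS was 1 of the parts. The other part was the introns of Eef1b2, at 0, 2.32 and 2.05 CPM in SRSF3, against 56.7 and 30.8 CPM in SRSF7 replicates 4 and 6 and 0 in the 4 thinner SRSF7 libraries (-3.66 ± 0.91, adjusted p = 0.0159, limma). The groups overlapped, and the call was lost with small RNA tags kept with the host, at -0.92 (adjusted p = 0.55, limma), and 2 snoRNA genes lie in the introns of Eef1b2. Within the later run 0 genes and 1 part were called. Of all genes 0.255% were higher and 0.425% lower there, and of all parts 2.01% and 1.79%. The strongest intronic stretch of Eef1b2 lies between the snoRNA genes.
Eef1b2 intron, chr1:63225468-63225497, plus strand: taaaagtgggtaatcTtcattgttagtagt

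The gamma subunit of eIF2, which binds the initiator tRNA, is encoded in mouse by Eif2s3x on the X chromosome and Eif2s3y on the Y chromosome. Eif2s3y was the most uneven of the factors. It had 32.1, 49.4, 0 and 185 CPM in SRSF5, against 0, 0 and 118 CPM (lowest, median, highest) in the other 24 SR libraries, of which 18 were at 0 (3.37 ± 0.85, adjusted p = 0.00922, limma). Without SRSF2 replicates 2 and 5 the change was 3.63 (adjusted p = 0.0037, limma), and within the earlier run it was 2.53 (adjusted p = 0.1, limma). In SRSF3 it was listed at 0 in all 3 libraries, against 37.9 and 66.2 CPM in SRSF7 replicates 4 and 6 and 0 in the other 4 (adjusted p = 0.0367, limma). This is its strongest stretch, in coding exon 8 of 12.
Eif2s3y, chrY:353022-353051, plus strand: ttcttggctagttatTcggtcttttgatgt

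The other Y-linked genes went with it. SRSF3 had 0 tags in Eif2s3y, Ddx3y, Uty and Kdm5d together among 4511240 listed tags, and SRSF4 0 among 1534497, where SRSF5 had 319, SRSF7 840, SRSF2 1414, SRSF1 187 (163 in replicate 1), SRSF6 21 and NXF1 7. Within SRSF2 all 1414 came from replicates 2 and 5, the libraries whose headers name SRSF1, with 651 and 763 tags, and replicates 1, 3 and 4 had 0, the deepest of these with 179693 listed tags. Within SRSF6 20 of 21 came from replicate 3. Eif2s3x had 38 tags in SRSF3, 8 in SRSF4, 93 in SRSF7, 29 in SRSF2, 27 in SRSF6 and 11 in SRSF1, and 0 in SRSF5 and NXF1. The part of these differences in the calls of Eif2s3y was not tested.

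**Figure D4:**
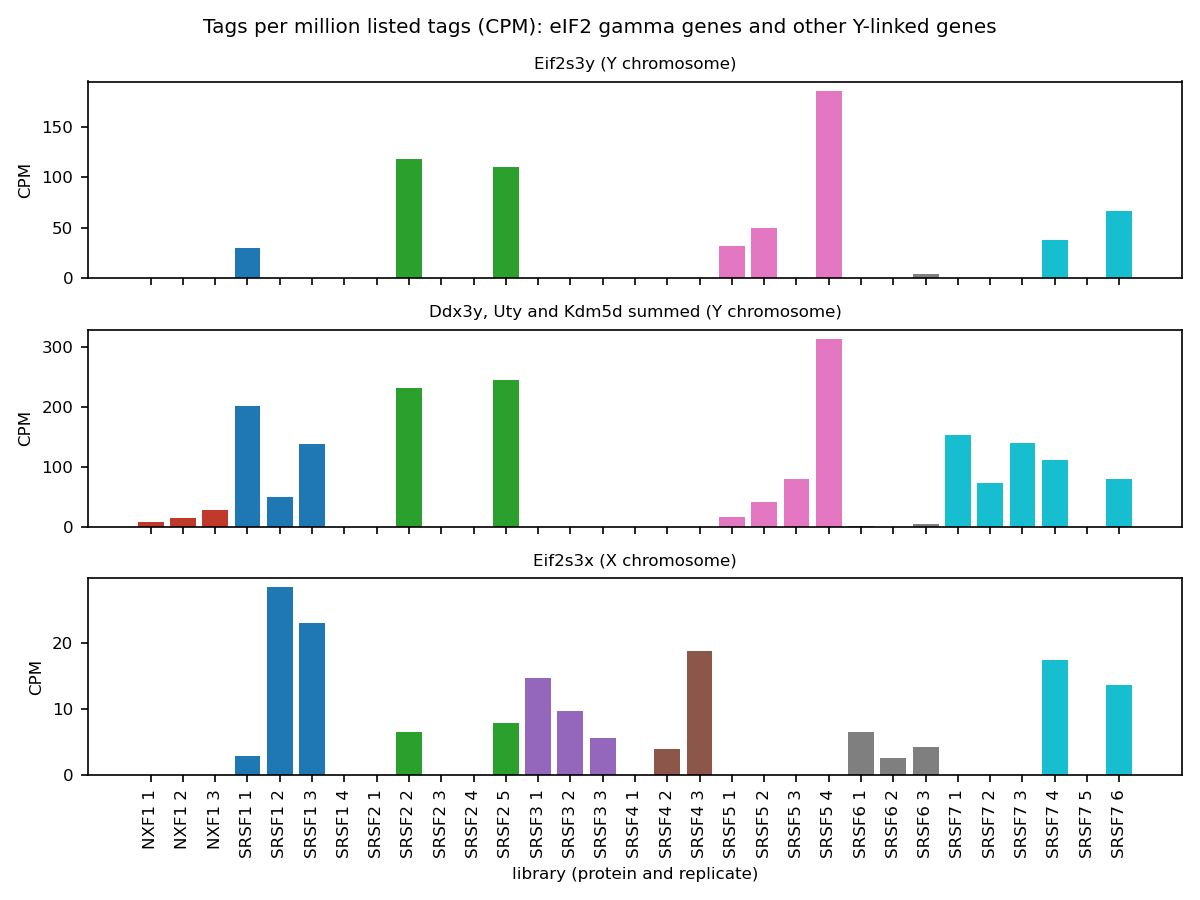
CPM of Eif2s3y, of Ddx3y, Uty and Kdm5d summed, and of Eif2s3x, with a bar for each of the 31 libraries coloured by protein. The first and second panels are empty for SRSF3, SRSF4 and SRSF2 replicates 1, 3 and 4, and both have bars for SRSF2 replicates 2 and 5, SRSF5 replicates 1, 2 and 4 and SRSF7 replicates 4 and 6.

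Many of these genes carry small nucleolar RNAs (snoRNAs), which guide rRNA modification and are released from introns. The annotation places 22 small RNA genes inside factor genes on the same strand, 17 of them with tags, in 10 hosts, and their tags (the gene and 5 nt on each side) were kept apart from the host. NXF1 had 14649, 15609.7 and 13292 CPM in them, against 671, 3131 and 12732 CPM (lowest, median, highest) in the 28 SR libraries. Every NXF1 library was above every SR library, the closest being SRSF7 replicate 1 with 166 such tags. In SR libraries of 50000 to 250000 listed tags, the depth of the NXF1 libraries, the range was 2176 to 10007 CPM. Of all tags at the host loci, small RNAs made up 76.0% to 84.8% in NXF1 and 7.46% to 81.4% in SR libraries.

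The small RNA signal was spread over several genes. Within Eif4g2, snoU97 had 4047, 4567 and 3146 CPM in NXF1, against 3562 ± 3382 CPM in SRSF3 (n = 3), where replicate 1 had 7467 CPM. Within Eif4a1, SNORA67 averaged 1794 CPM in NXF1 and 209.8 CPM over the 7 SR proteins, and within Eif4a2, Snora81 averaged 1532 CPM in NXF1 and 235 CPM over the SR proteins. Snord37, inside Eef2, had 884, 955 and 727 CPM in NXF1, against 1648 ± 1229 CPM in SRSF1 (n = 4) and 1511 ± 1247 CPM in SRSF7 (n = 6). The deepest SRSF7 libraries, replicates 4 and 6, had 221 and 627 CPM of it, so SRSF7 lay on both sides of NXF1. It averaged 126 CPM in SRSF2 and 129 CPM in SRSF3. The GFP-NLS control had 29 small RNA tags (1325 CPM), 22 of them in snoU97 (1005 CPM). No test was run on them, and the 2 SNORA63 genes of Eif4a2 may share reads.

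**Figure D5:**
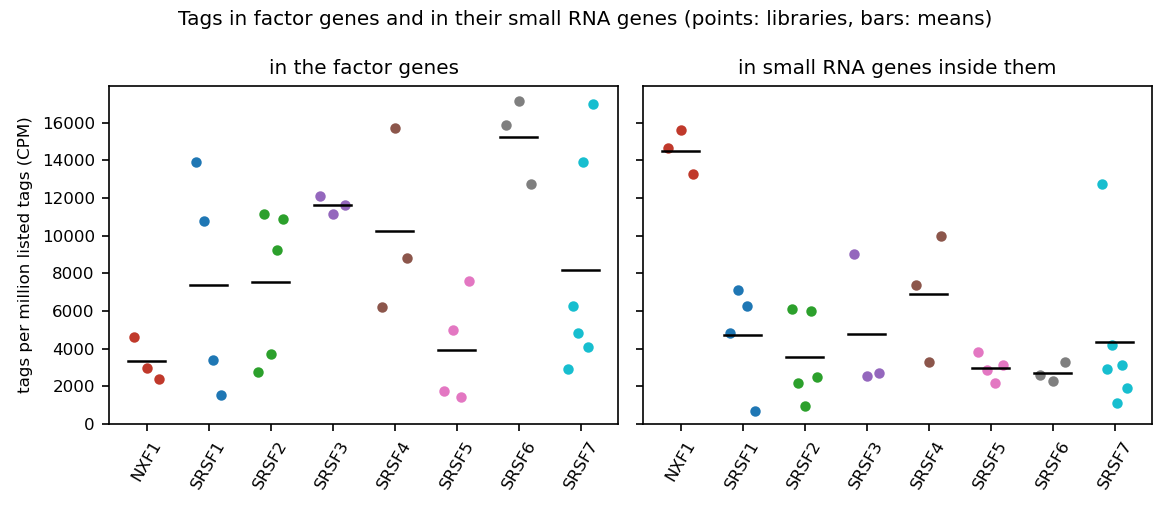
CPM in the factor genes and in the small RNA genes inside them, with a point for each library and a bar at each protein's mean. The 3 NXF1 points are low in the first panel, at 2383 to 4636 CPM, and above all SR points in the second, at 13292 to 15609.7 CPM.

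The sequence around the tags differed between proteins. In the 25 libraries with at least 100 tags in factor CDS, the 31 nt centred on each tag were searched on the transcript strand for 5 words of 4 letters, each given with its value and chosen after the tags were seen, and the share of windows holding each was set beside that over all 103872 CDS positions of the genes. The word CATC was in 15.3 ± 5.78% of NXF1 windows (n = 3), 33.5 ± 3.55% of SRSF3 windows (n = 3) and 25.6 ± 9.75% of SRSF7 windows (n = 4), with 13.4% of all positions. CTTC was in 28.7 ± 2.48% of SRSF3 windows, where all positions gave 13.7%. The lowest SRSF3 library held CATC in 31.3%, above every library of NXF1, SRSF1, SRSF2, SRSF4, SRSF5 and SRSF6.

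GATG was in 32.4 ± 5.75% of SRSF4 windows (n = 3), 29.1 ± 0.726% of SRSF6 windows (n = 3) and 26.9 ± 1.28% of SRSF1 windows (n = 3), with 17.8% of all positions and 13.7 ± 1.29% in SRSF3. AAGA was in 32.5 ± 1.11% of SRSF6, 32.2 ± 5.65% of SRSF1 and 30.9 ± 2.28% of SRSF7 windows, with 23.7% of all positions and 18.05 ± 0.288% in SRSF3. CAAC was in 24.2 ± 4.52% of NXF1, 23.8 ± 2.53% of SRSF3 and 22.1 ± 9.73% of SRSF7 windows, with 10.7% of all positions. The SRSF7 libraries ranged from 12.6% to 35.4% for CAAC. The means of the other SR proteins lay between 9.98% (SRSF6) and 15.1% (SRSF2). Without Eef1a1 CAAC was in 13.0% of NXF1 windows, where only 1 library still had 100 tags. It was then in 18.9% of SRSF3 windows and 12.4% of SRSF7 windows (n = 3 each). T stood at the tag itself in 40.0% (SRSF4) to 50.4% (SRSF5) of windows by mean, with 21.6% of all positions.

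Of 32 other genes of the translation pathway, 19 were tested. SRSF5 was lower in 5 of them, beside 20% of all genes: Denr and Abcf1, which act in initiation and reinitiation, Paip1 and Paip2, which bind the poly(A)-binding protein, and Pdcd4, an inhibitor of eIF4A. SRSF6 was higher in 1, Abcf1, beside 4.23% of all genes. Denr changed most in SRSF5 (-4.32 ± 0.80, adjusted p = 0.00149, limma), and Abcf1 stood at 3.05 ± 0.74 in SRSF6 (adjusted p = 0.0156, limma). By part, SRSF3 against SRSF7 gave 1 higher and 1 lower among 33 parts, beside 1.39% and 2.41% of all parts. They lay in Pdcd4 and Pabpc1, which are not named here in the order of direction. The median of the 19 was -1.45 in SRSF5 and 1.4 in SRSF6, beside -1.27 and 1.04 over all genes.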

How the data were processed

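Crosslink positions were deposited by the authors for each of 31 libraries and, summed, for each protein and the GFP-NLS control. The values the authors deposited are tag counts per nucleotide, signed by strand and not normalized, on mm9, with CASAVA 1.4 named in the submitters' processing notes. Their absolute values were used. The authors kept positions at a false discovery rate of 0.05 (100 permutations, 15 nt neighbourhood), so totals are of listed tags, not sequencing depth. The sources used here do not say how multi-mapping reads were treated.

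Tags were assigned on the same strand to genes of the mm9 annotation, small RNA genes (with 5 nt on each side) before their hosts, a choice made after the tags were seen. Between 13.8% and 67.1% of a library's tags (median 34.2%) fell in no gene or in a tie. CPM used the library's listed tags. Genes needed 42.1 CPM (10 tags in the median library) in 3 libraries or more, and a total of at least 15 tags. The fit was limma voom (limma 3.58.1, R 4.3.3) with a term for each protein over the 31 libraries and Benjamini-Hochberg adjustment over all genes or parts; Python 3.11.15, numpy 2.4.6 and pandas 2.3.3 did the rest. The fit was tried on simulated libraries with a fixed spread, for NXF1, SRSF5 and SRSF3 against the SR proteins and not for the other comparisons. Of genes set at a log2 change of -2 it recovered 28.3% for NXF1, 60% for SRSF5 and 67.4% for SRSF3. Of parts set at -2 for NXF1 it recovered 18.2%. Of genes set at 3 it recovered 97.9% to 100%. Of genes set at -3 it recovered 68.9% for NXF1, 93.0% for SRSF5 and 100% for SRSF3, and of parts set at -3 for NXF1 51.3%. The simulation left out the threshold on listed positions, so these shares may not hold for the libraries here. Alternatives were trimmed-mean scaling (30% of ratios and 5% of levels trimmed), coding-gene totals, no filter, limma-trend, 1 run only, a replicate block, matched depth (50000 to 250000 listed tags, 11 libraries), and each replicate left out. Values are given for the 12 genes with the highest mean CPM, up to 5 genes called in each direction of a comparison by smallest adjusted p, and the 2 highest of each role list. Further genes named (Eif2s3x, Eif4a1 and the rest of those lower in SRSF5) were chosen after their values were seen. The stretch of 1 of the 12 genes is not reported here. The genes and lists were chosen with earlier results of these data known. No pair of libraries of a protein agreed within sampling noise (smallest chi-square per degree of freedom 7.29 over 49 pairs). The summed SRSF7 file does not hold replicate 4. Precision is limited by the listed tags, and a value of 0 says only that no position passed the threshold.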

Additional observations from a re-analysis of the deposited data

Results flagged for a closer look

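Of 72 groups of 4 to 6 libraries examined, 10 had a library far from the rest, where chance gives about 1 in 20 for values of equal spread. The libraries differ widely in listed tags and recur in several groups, so that rate is only a rough guide. SRSF7 replicate 1, the library with the fewest listed tags, had 12732 CPM in small RNAs inside the factor genes, against 1121 to 4164 CPM in the other SRSF7 libraries. Its CDS share was 34.2%, against 62.8% to 76.5%, and its intron share was 34.2%, against 4.56% to 13.6%. SRSF2 replicate 3 had an intron share of 67.3%, against 5.19% to 22.7% in the other SRSF2 libraries, and SRSF2 replicate 4 a 5′ UTR share of 13.6%, against 6.82% to 7.59%. SRSF5 replicate 3 had an intron share of 38.3%, against 7.73% to 12.003%. Some of these shares rest on few tags in the factor genes: 38 in SRSF7 replicate 1, 110 in SRSF2 replicate 3 and 107 in SRSF5 replicate 3. SRSF1 replicate 3 had a CDS share of 54.6%, against 69.6% to 71.8%. Among single genes, Eef1a1 had 3574 CPM in SRSF7 replicate 6, against 614 to 1638 CPM. Eif4g2 had 379.6 CPM and Eif5 222 CPM in SRSF1 replicate 1, against 0 to 28.4 CPM and 0 to 24.4 CPM in the other SRSF1 libraries.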

How the results depend on the processing

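The 20 called changes of single genes or parts that were followed (11 further calls in SRSF5 were not) did not change sign under any alternative run on them, and kept their call in 653 of 800 of these. The call of the Eif2c2 CDS in NXF1 was lost in 26 of 40, that of the Eif3c CDS in 20 of 40 and that of Eif4e2 in 16 of 40. The calls were most often lost with limma-trend (19), trimmed-mean scaling (11) and no filter on low values (9). Counts of called factors moved more. The share of all genes or parts called higher, then lower, follows a setting in brackets where it was tallied. For NXF1, 3 became 0 with trimmed-mean scaling (5.81%, 0.049%), 0 with limma-trend (0.376%, 0.212%) and 12 in the later run (6.29%, 34.0%). For SRSF1, 1 became 2 with coding-gene totals (3.66%, 5.6%), 0 with no filter, 0 with limma-trend (0.131%, 0.0327%) and 2 in the later run (1.11%, 1.53%). For SRSF2, 0 became 1 with coding-gene totals (0.963%, 1.57%), and for SRSF4, 0 became 2 with coding-gene totals (2.66%, 1.14%). For SRSF3, 2 became 4 with coding-gene totals, 3 higher and 1 lower (7.33%, 7.35%), 0 with no filter and 0 with limma-trend (0.702%, 0.0327%). It became 1 in the later run (9.12%, 2.98%) and 4 without SRSF2 replicates 2 and 5 (11.1%, 2.93%). For SRSF5, 17 became 4 with trimmed-mean scaling (3.56%, 2.38%), 7 with coding-gene totals (5.7%, 8.82%) and 8 with no filter. It became 0 with limma-trend (0.0653%, 0.0327%) and 7 in the earlier run (1.2%, 17.4%). For SRSF6, 2 became 0 with trimmed-mean scaling (0.473%, 0.98%), 0 with no filter and 0 with limma-trend (0.114%, 0%). It became 14 in the earlier run (17.7%, 2.1%) and 5 without SRSF2 replicates 2 and 5 (8.42%, 1.41%). For SRSF7, 1 became 2 with coding-gene totals (2.78%, 1.6%), 0 in the earlier run (1.42%, 0.06%) and 2 without SRSF2 replicates 2 and 5 (2.66%, 0.552%). For SRSF3 against SRSF7, 1 became 2 with coding-gene totals (1.14%, 4.07%), 0 with limma-trend (0.31%, 0.0327%) and 0 in the later run (0.255%, 0.425%). For parts, NXF1 gave 0 in place of 2 with trimmed-mean scaling (3.47%, 0.0545%) and 8 with coding-gene totals, 6 higher and 2 lower (9.78%, 0.354%). It gave 0 with no filter, 0 with limma-trend (0.272%, 0.0272%) and 12 in the later run (5.34%, 10.5%). It gave 0 with small RNA tags kept with the host and 4 without SRSF2 replicates 2 and 5 (2.89%, 0.734%). For parts, SRSF3 against SRSF7 gave 8 in place of 2 with coding-gene totals (2.3%, 5.86%), 7 with no filter and 0 with limma-trend (1.02%, 0.0408%). It gave 1 in the later run (2.01%, 1.79%), 1 with small RNA tags kept with the host and 1 without SRSF2 replicates 2 and 5 (1.38%, 2.72%). Counts at matched depth are left out, because that fit held single libraries of some proteins. The cause of these moves was not tested.

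Same-numbered libraries did not deviate together on average (mean r 0.0091 over 91 pairs, range -0.217 to 0.2996, with 14 over 0.1). Some of them share a run and lane in the headers, such as replicate 1 of SRSF2, SRSF5 and SRSF7, and replicate 2 of SRSF3 and SRSF4. Whether the pairs that share a lane deviated together was not tested. With the replicate block the counts were 0 for SRSF1, 4 for SRSF6, 0 for SRSF7, 0 for SRSF3 against SRSF7 and 0 for its parts. The share of all genes or parts called was not tallied with the block, without the filter or with small RNA tags kept with the host. Nor was it tallied with single replicates left out. A move in these counts of factors cannot be told from a move in all calls.

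With single replicates left out, the counts ranged from 0 to 6 for NXF1, 0 to 2 for SRSF1, 0 to 1 for SRSF2, 0 to 4 for SRSF3, 1 to 19 for SRSF5, 0 to 3 for SRSF6, 0 to 3 for SRSF7, 0 to 1 for SRSF3 against SRSF7, and for parts 0 to 4 for NXF1 and 0 to 3 for SRSF3 against SRSF7. The shares of NXF1 minus SR proteins ranged from 1.19 to 6.18 points in the 5′ UTR, -9.95 to -6.45 in the CDS and 16.2 to 17.3 in the 3′ UTR. With small RNA tags kept with the host the 5′ UTR difference was -3.75, the CDS difference -31.8 and the 3′ UTR difference -1.10 points. Without Eef1a1 the CDS difference was -20.8 and the 3′ UTR difference 23.9 points. The 3′ UTR difference was 14.5 in the summed files, 14.05 in the later run, 14.4 without the gene with the most tags and 13.4 with the longest spliced transcript as representative.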
